A study of Homo sapiens with 4 samples.

Results

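The Toll-like receptor and MYD88 pathway was followed here through 10 genes in 2 diffuse large B-cell lymphoma (DLBCL) cell lines, SU-DHL-5 and Toledo. The genes were TLR10, TLR1, TLR6, CD180, TLR7, TLR9, UNC93B1, MYD88, IRAK4 and IRAK1, and each was taken by its symbol from a gene table of 41507 genes. All 10 were found, and all 10 were among the 10258 genes whose mean over the 4 samples reached 0.5 RPKM (read counts divided by gene length and by the mapped reads per library), the genes called tested below. TLR10, TLR1 and TLR6 reached this mean only through SU-DHL-5 and TLR7 only through Toledo. CD180, TLR1 and TLR7 reached it only through the DMSO samples.

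SU-DHL-5 and Toledo are established lines of malignant B lymphocytes. The study exposed each line to DMSO, the vehicle, or to JQ1 at 1 µM, for 6 h by the labels (the legend of the study gives a longer time), and sequenced the mRNA. JQ1 inhibits BET proteins, readers of acetylated histones, by taking them off chromatin. There was 1 sample per condition, sequenced as 2 libraries that were counted as 1 replicate, so within a line a difference is set beside the gap between libraries, with no p-value. Over both lines the effect of JQ1 was tested with the line as a block.

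Toll-like receptors recognise microbial molecules. TLR1, TLR6 and TLR10 sit at the cell surface, where they pair with TLR2 or with each other, and CD180 is a related surface receptor of B cells that lacks the signaling domain. TLR7 and TLR9 sense RNA and DNA in endosomes and reach them with the help of the chaperone UNC93B1. Ligand-bound receptors recruit the adaptor MYD88, which assembles with the kinases IRAK4 and IRAK1 and leads to NF-kB and to interferon regulatory factors. Mutated MYD88 is a known driver of a subset of DLBCL.

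The libraries held 14617583 to 17679831 mapped reads, as recovered from the RPKM values. Both lines carried B-cell RNA, with 8 of 8 B-cell markers at 0.5 RPKM or more in each of the 4 samples. Markers of T cells, myeloid cells, plasmacytoid dendritic cells and NK cells summed to at most 1.35 RPKM per list and sample. The highest of them were in SU-DHL-5, where CD3E (a T-cell receptor subunit) had 50 reads with DMSO and 4 with JQ1 and LYZ (lysozyme of myeloid cells) had 57 and 7. HEXIM1, a gene known to respond to BET inhibitors, was higher with JQ1 by 2.43 in SU-DHL-5 and by 2.57 in Toledo on the log2 scale. MYC, the other gene taken as a check of the treatment, was not called in either line. It differed by −0.29 in SU-DHL-5 and by 0.03 in Toledo, where its libraries overlapped.

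With JQ1, 5 of the 10 genes fell to 0.5 or less of their DMSO level in SU-DHL-5, and none rose to 2 or more. These were CD180, IRAK1, TLR1, TLR10 and MYD88. Among all tested genes, 6.25% were lower by this measure and 1.83% higher. In Toledo 6 of the 10 fell, CD180, TLR10, IRAK1, TLR1, TLR6 and TLR7, and none rose, where 7.93% of the tested genes were lower and 1.82% higher. CD180, IRAK1, TLR1 and TLR10 fell in both lines, as did 3.52% of tested genes. Because the 10 genes were chosen with earlier results of these data known, these shares describe them and do not test them as a set. For CD180, TLR1 and TLR7 the filter also favours a fall, since they passed it only through the DMSO samples. These calls use log2 of the ratio of mean RPKM, with 0.1 RPKM added to each. On this scale the SU-DHL-5 median of the 10 genes was −1.04 and the Toledo median −1.25, beside 0.00 and −0.07 for all tested genes. With 1 RPKM added in place of 0.1, Toledo kept 2 of its 6 calls, CD180 and IRAK1, and SU-DHL-5 lost that of TLR10 (log2 −0.97).

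Each of the 10 genes had both JQ1 libraries below both DMSO libraries in each line. Because 2 libraries of 1 sample are close, this is a weak measure. Of all tested genes, 37.5% had both JQ1 libraries below and 39.9% both above in SU-DHL-5, against 43.1% below and 28.8% above in Toledo, and 28.9% were below in both lines. In bulk RNA, fewer cells of a type and less RNA per cell cannot be told apart.

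With the 4 samples in 1 fit and the cell line as a block, 7 of the 10 genes were lower with JQ1 at an adjusted p under 0.05 (limma, Benjamini-Hochberg over all tested genes), CD180, IRAK1, TLR10, TLR1, MYD88, UNC93B1 and TLR9. Of all tested genes 16.0% were lower in this fit and 9.63% higher. The 10 genes were chosen with earlier results of these data known and the fit was added after the data were seen. The counts are thus a description and no test of the set. For CD180 and TLR1 the filter favours a fall here as well. IRAK1 had the smallest adjusted p, 1.05e-06 (limma, log2 −2.04 ± 0.12, SE), and CD180 the largest effect (log2 −2.91 ± 0.30, SE, limma adjusted p = 8.97e-05). TLR9 was nearest to the threshold (log2 −0.85 ± 0.27, SE, limma adjusted p = 0.0409). TLR6 (adjusted p = 0.136 by limma), TLR7 (0.257) and IRAK4 (0.451) did not pass. The fit has 1 residual degree of freedom, the difference of the response between the lines, and takes most of its estimate of the spread from the other genes.

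B-cell markers also moved. JQ1 lowered 3 of the 8 in SU-DHL-5 (6.25% of tested genes) and 4 of the 8 in Toledo (7.93%) past the same limit. Among them, MS4A1 (the gene of CD20) and CD22, which encode surface proteins of B cells, were called in both lines, and BLK, a kinase of B-cell receptor signaling, in Toledo. The summed level of the 8 went from 959 to 650 RPKM in SU-DHL-5 and from 949 to 632 RPKM in Toledo. Its part in the result for the 10 genes was not tested.

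**Figure D1:**
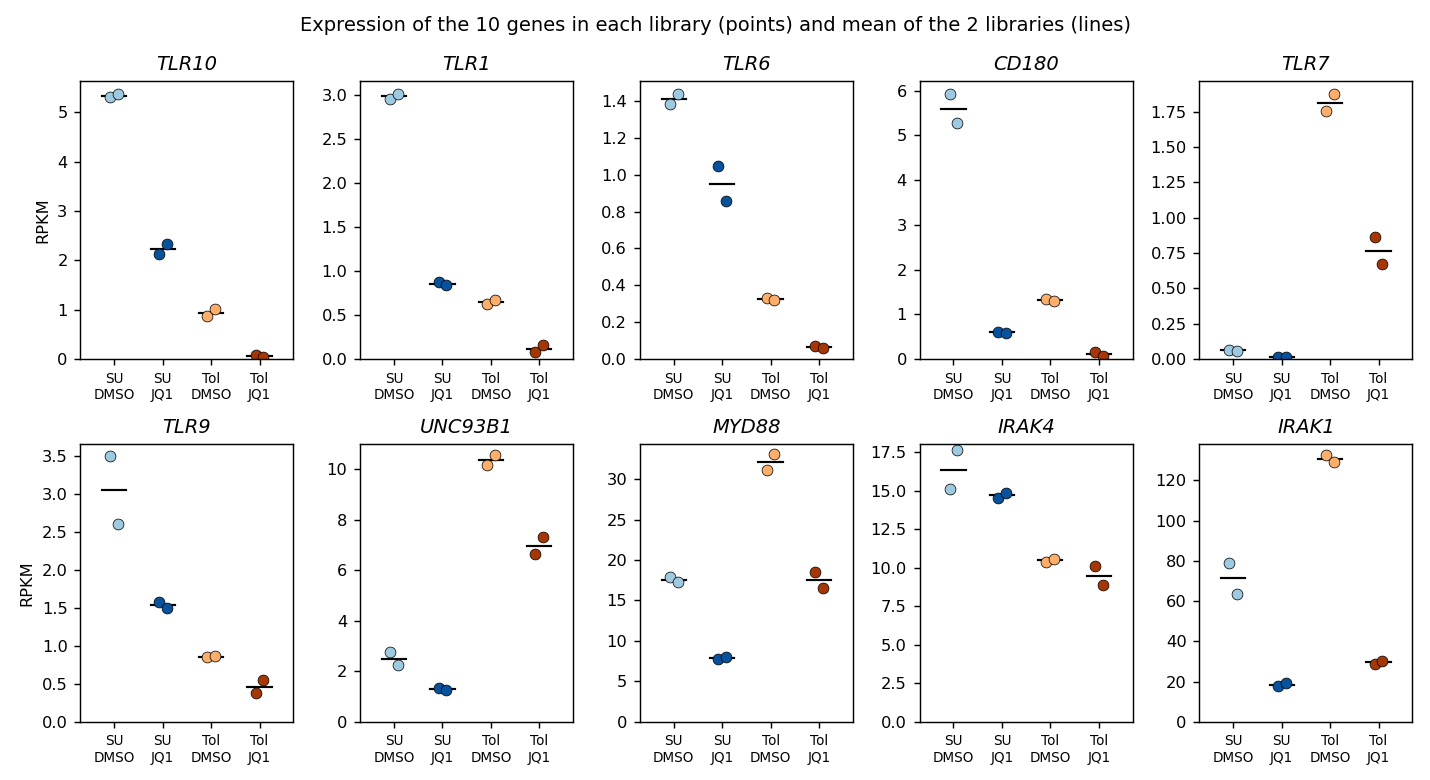
Expression in RPKM (vertical axes, each from 0) of the 10 genes in SU-DHL-5 (SU, blue) and Toledo (Tol, orange) cells treated with DMSO (light) or JQ1 (dark). Points are the 2 libraries of a sample and lines their mean. The 2 JQ1 points lie below the 2 DMSO points in each line for all 10 genes, by a narrow gap for IRAK4.

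The promoters of 4 genes are shown because they cover the range of the responses: CD180 and IRAK1, which fell in both lines, TLR6, which fell in Toledo, and IRAK4, which was not called in either. RefSeq (GRCh38.p14) gave a promoter for 6 of the 10 genes, TLR6, CD180, TLR9, MYD88, IRAK4 and IRAK1. The 250 bases before the start are printed in the direction of transcription, and capitals mark a match to a searched motif on either strand. They lie at chr5:67196800-67197049 for CD180, on the minus strand, at chrX:154019903-154020152 for IRAK1, minus strand, at chr4:38856818-38857067 for TLR6, minus strand, and at chr12:43758701-43758950 for IRAK4, plus strand.
CD180: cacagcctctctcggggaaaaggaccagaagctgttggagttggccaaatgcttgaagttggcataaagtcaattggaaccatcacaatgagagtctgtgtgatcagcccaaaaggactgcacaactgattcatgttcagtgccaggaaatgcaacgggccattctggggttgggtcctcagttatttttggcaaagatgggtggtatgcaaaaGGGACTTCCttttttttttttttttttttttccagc
IRAK1: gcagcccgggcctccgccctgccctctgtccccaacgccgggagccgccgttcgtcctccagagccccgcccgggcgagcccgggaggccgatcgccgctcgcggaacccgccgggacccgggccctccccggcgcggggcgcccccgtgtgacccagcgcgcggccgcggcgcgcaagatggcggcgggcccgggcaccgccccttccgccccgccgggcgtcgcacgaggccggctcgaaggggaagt
TLR6: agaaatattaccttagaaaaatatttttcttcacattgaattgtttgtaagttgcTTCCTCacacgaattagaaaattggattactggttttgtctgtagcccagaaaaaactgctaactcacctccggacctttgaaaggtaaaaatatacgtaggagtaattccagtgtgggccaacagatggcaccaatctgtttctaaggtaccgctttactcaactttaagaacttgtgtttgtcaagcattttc
IRAK4: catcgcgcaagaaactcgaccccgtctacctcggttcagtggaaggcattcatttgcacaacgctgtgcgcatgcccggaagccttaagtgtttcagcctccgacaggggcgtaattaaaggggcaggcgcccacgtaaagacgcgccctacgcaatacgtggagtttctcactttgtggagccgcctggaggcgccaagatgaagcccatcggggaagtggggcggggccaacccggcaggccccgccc
The IRAK1 promoter was the richest in G and C of the 6, with 83.0% over its 300 bases (250 before and 50 after the start) and 52 CG dinucleotides. The IRAK4 promoter had 61.7% and 28, the CD180 promoter 45.0% and 2, and the TLR6 promoter 34.7% and 5. All 35116 RefSeq promoters had a median of 58.7% and 14. Genes that fell had promoters at both ends of this range.

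4 motifs were searched on both strands of these 300 bases. The core of the PU.1 site, GAGGAA, was in 3 of the 6 promoters, those of TLR6, TLR9 and MYD88, and in 27.9% of all promoters. The NF-kB motif GGGANTTCC was in that of CD180 alone, 36 bases before the start, and in 1.85% of all promoters. The TATA box TATAAA was in that of TLR9 and in 11.5% of all, and the E-box CACGTG was in none of the 6 and in 7.26% of all. The matches in these promoters did not overlap one another, and a match only describes the sequence.

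Of the surface receptors, CD180 fell furthest in SU-DHL-5, while in Toledo TLR10 kept the smaller share of its DMSO level. The Toledo order rests on 8 reads of TLR10 and 13 of CD180 with JQ1. With 0.1 RPKM added it reversed (log2 −2.71 for TLR10 and −2.78 for CD180). CD180 lies at chr5:67181377-67196789 on the minus strand (GRCh38, as are all positions of genes here). In SU-DHL-5 it measured 5.92 and 5.28 RPKM with DMSO and 0.612 and 0.582 RPKM with JQ1. In Toledo it measured 1.35 and 1.29 RPKM with DMSO and 0.147 and 0.0659 RPKM with JQ1. The treated libraries were far below the untreated ones in both lines, and SU-DHL-5 kept 10.7% of the DMSO level of CD180, and Toledo 8.05%. The log2 ratio was −3.03 in SU-DHL-5, where 0.253% of tested genes were lower still, and −2.78 in Toledo, where 0.682% were. The level in Toledo with JQ1 rests on 13 reads, against 169 with DMSO.

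TLR10, TLR1 and TLR6 are neighbours on the minus strand of chromosome 4, in that order within 84.6 kb (chr4:38772239-38856817). TLR10 lies at chr4:38772239-38782990, TLR1 at chr4:38796255-38805193 and TLR6 at chr4:38823704-38856817. TLR1 and TLR6 share nearly identical stretches, so the division of reads between them is uncertain. The 3 genes did not move by the same amount.

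TLR10, whose ligand is debated, measured 5.30 and 5.36 RPKM with DMSO and 2.12 and 2.33 RPKM with JQ1 in SU-DHL-5. In Toledo its libraries held 0.870 and 1.01 RPKM with DMSO and 0.0727 and 0.0440 RPKM with JQ1. The treated sample kept 41.7% of the DMSO level in SU-DHL-5 (log2 −1.22) and 6.22% in Toledo (log2 −2.71), there on 8 reads against 134. From the reads, without the added 0.1 RPKM, the log2 ratio was −1.26 (95% interval −1.47 to −1.07) in SU-DHL-5 and −4.00 (−5.24 to −2.98) in Toledo. The intervals of the lines do not overlap. All such intervals are exact binomial intervals that cover counting error only, and the difference between the lines has no replicate check.

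TLR1, which pairs with TLR2 to bind bacterial lipopeptides, measured 2.96 and 3.01 RPKM with DMSO and 0.875 and 0.838 RPKM with JQ1 in SU-DHL-5. The Toledo libraries measured 0.622 and 0.677 RPKM with DMSO and 0.0772 and 0.156 RPKM with JQ1. Of the DMSO level, 28.7% remained in SU-DHL-5 (log2 −1.69) and 17.9% in Toledo (log2 −1.79). On the log2 scale the lines were closer for TLR1 than for either of its neighbours.

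TLR6, which pairs with TLR2 as well, was called in Toledo and not in SU-DHL-5. It measured 1.39 and 1.44 RPKM with DMSO and 1.04 and 0.859 RPKM with JQ1 in SU-DHL-5, 67.4% of the DMSO level (log2 −0.52). In Toledo it measured 0.331 and 0.319 RPKM with DMSO and 0.0720 and 0.0622 RPKM with JQ1, 20.6% of the DMSO level (log2 −1.35), on 66 and 13 reads. From the reads the log2 ratios were −0.56 (−0.84 to −0.28) and −2.28 (−3.26 to −1.41), and the intervals do not overlap. The summed level of TLR1, TLR6, TLR10 and CD180 went from 15.3 to 4.63 RPKM in SU-DHL-5 and from 3.24 to 0.348 RPKM in Toledo.

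**Figure D2:**
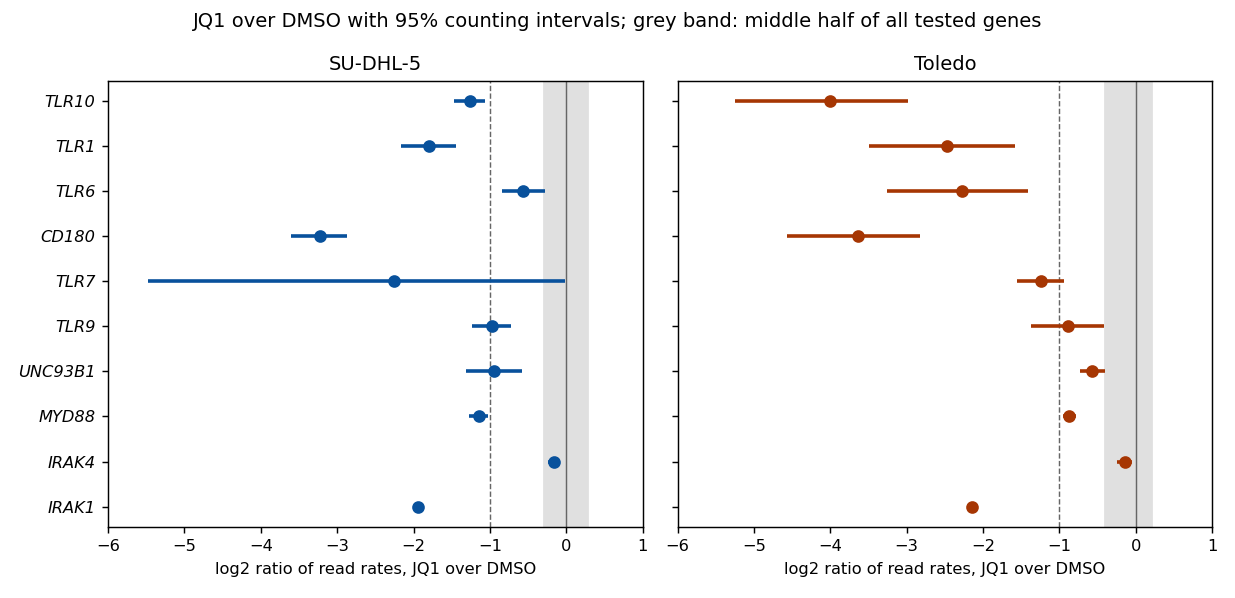
Ratio of JQ1 over DMSO (horizontal axis, log2 of the ratio of reads per mapped read) for the 10 genes in SU-DHL-5 (left) and Toledo (right). Points are the ratios of the summed reads of both libraries, bars their 95% intervals for counting error (shorter than the point where none shows), the grey band the interquartile range of all tested genes on the scale with 0.1 RPKM added, and the dashed line a ratio of 0.5. IRAK4 alone lies within the band in both lines, and the bars are widest for genes with few reads, such as TLR7 in SU-DHL-5 (10 reads with DMSO and 2 with JQ1).

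The endosomal receptors differed more between the lines than in their response. TLR9, the receptor of CpG DNA at chr3:52221080-52226163 on the minus strand, measured 3.50 and 2.60 RPKM with DMSO and 1.58 and 1.503 RPKM with JQ1 in SU-DHL-5. In Toledo it measured 0.848 and 0.859 RPKM with DMSO and 0.381 and 0.544 RPKM with JQ1. The JQ1 libraries were lower in both lines, but neither ratio passed the limit, with 50.5% of the DMSO level left in SU-DHL-5 (log2 −0.94) and 54.2% in Toledo (log2 −0.76). The DMSO libraries of SU-DHL-5 differed from each other by 0.42 on the log2 scale, the widest gap among the 10 genes in that sample, and library 1 alone gave a called ratio there (log2 −1.10).

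TLR7, the receptor of single-stranded RNA at chrX:12867083-12890361 on the plus strand, was measured mainly in Toledo. There it held 1.76 and 1.87 RPKM with DMSO and 0.862 and 0.670 RPKM with JQ1, 42.2% of the DMSO level (log2 −1.14, called lower, but −0.95 with library 1 alone). In SU-DHL-5 it held 0.0638 and 0.0590 RPKM with DMSO and 0.0121 and 0.0137 RPKM with JQ1. These were 10 and 2 reads, with a log2 ratio of the reads of −2.25 and an interval from −5.48 to −0.02, and the fold in this line is not determined at this depth.

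UNC93B1, the chaperone of the endosomal receptors at chr11:67991104-68004123 on the minus strand, was not called in either line. It measured 2.75 and 2.24 RPKM with DMSO and 1.33 and 1.24 RPKM with JQ1 in SU-DHL-5, 51.6% of the DMSO level (log2 −0.90). In Toledo it measured 10.2 and 10.6 RPKM with DMSO and 6.64 and 7.30 RPKM with JQ1, 67.3% of the DMSO level (log2 −0.56). Near-identical copies of UNC93B1 exist in the genome, and its reads could be shared with them. The sum of TLR7 and TLR9 went from 3.11 to 1.56 RPKM in SU-DHL-5 and from 2.67 to 1.23 RPKM in Toledo, so that samples with different leading receptors had similar sums.

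Of the shared signaling genes, IRAK1 fell in both lines, MYD88 in SU-DHL-5 and IRAK4 in neither. IRAK1, a kinase that IRAK4 phosphorylates, lies at chrX:154010506-154019891 on the minus strand. It measured 79.2 and 63.4 RPKM with DMSO and 17.9 and 19.2 RPKM with JQ1 in SU-DHL-5. In Toledo it measured 133 and 129 RPKM with DMSO and 28.8 and 30.2 RPKM with JQ1. IRAK1 kept 26.0% of its DMSO level in SU-DHL-5 (log2 −1.94) and 22.5% in Toledo (log2 −2.15), with 2098 and 3484 reads left. It was the best measured of the 10 genes, with intervals of the log2 ratio of −2.01 to −1.87 and −2.20 to −2.10.

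MYD88, at chr3:38138478-38143022 on the plus strand, measured 17.9 and 17.2 RPKM with DMSO and 7.80 and 8.02 RPKM with JQ1 in SU-DHL-5. The Toledo libraries measured 31.2 and 33.1 RPKM with DMSO and 18.5 and 16.5 RPKM with JQ1. The DMSO level remained by 45.1% in SU-DHL-5 (log2 −1.14, called lower) and by 54.5% in Toledo (log2 −0.87, not called). Both values lie close to the limit of 0.5, on either side of it, and the intervals from the reads, −1.28 to −1.02 and −0.96 to −0.79, do not overlap. The JQ1 level in Toledo equalled the DMSO level in SU-DHL-5, at 17.5 RPKM each.

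IRAK4, the first kinase to bind MYD88, lies at chr12:43758944-43789543 on the plus strand. It measured 15.1 and 17.6 RPKM with DMSO and 14.5 and 14.9 RPKM with JQ1 in SU-DHL-5. In Toledo it measured 10.4 and 10.6 RPKM with DMSO and 10.1 and 8.88 RPKM with JQ1. The log2 ratios were −0.15 and −0.14, and in each line the means of DMSO and JQ1 lay closer together than the 2 libraries of 1 of the samples. With 1571 to 2736 reads per sample, counting error was not the limit.

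The ratio of the kinases also differed. IRAK1 stood at 4.36 times the level of IRAK4 in SU-DHL-5 with DMSO (5.25 and 3.60 in the libraries) and at 1.26 times with JQ1 (1.23 and 1.29). In Toledo the ratio was 12.5 with DMSO (12.8 and 12.2) and 3.10 with JQ1 (2.84 and 3.40). The libraries of treated and untreated samples did not overlap in either line. This ratio is taken within a library and does not depend on the number of mapped reads. In SU-DHL-5 IRAK1 over MYD88 went from 4.06 to 2.34 and MYD88 over IRAK4 from 1.07 to 0.538. The Toledo values went from 4.07 to 1.68 and from 3.07 to 1.85.

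Without JQ1 the lines expressed these genes at different levels. Relative to SU-DHL-5, Toledo had 0.5 or less of TLR10, TLR1, TLR6, CD180 and TLR9, 5 of the 10 genes, and 2 or more times as much TLR7 and UNC93B1. Among all tested genes 13.8% were lower and 16.1% higher in Toledo by this measure. TLR10, TLR1 and TLR6 are among the tested genes only through SU-DHL-5, and TLR7 only through Toledo. For these genes the filter favours a difference in the direction seen, so the counts do not test the set. Both Toledo libraries were below both SU-DHL-5 libraries for 6 of the 10 genes (41.6% of tested genes) and above for 4 (42.8% of tested genes). With 1 sample of each line, a difference between lines and one between samples cannot be told apart.

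The 4 surface receptors were each lower in Toledo, to 17.6% of the SU-DHL-5 level for TLR10, 21.7% for TLR1, 23.0% for TLR6 and 23.6% for CD180. TLR9 stood at 27.9%. TLR7 was 29.6 times as high in Toledo, with an interval of the log2 ratio of the reads from 3.99 to 5.96 and 10 reads in SU-DHL-5. UNC93B1 was 4.15 times as high. IRAK1 and MYD88 were 1.84 and 1.83 times as high in Toledo and IRAK4 stood at 64.1%, 3 values that did not pass the limit (IRAK1 passed it with library 2 alone, log2 1.03). TLR9 stood at 49.7 times TLR7 in SU-DHL-5, against 0.470 times in Toledo, so the leading endosomal receptor differed between the lines.

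**Figure D3:**
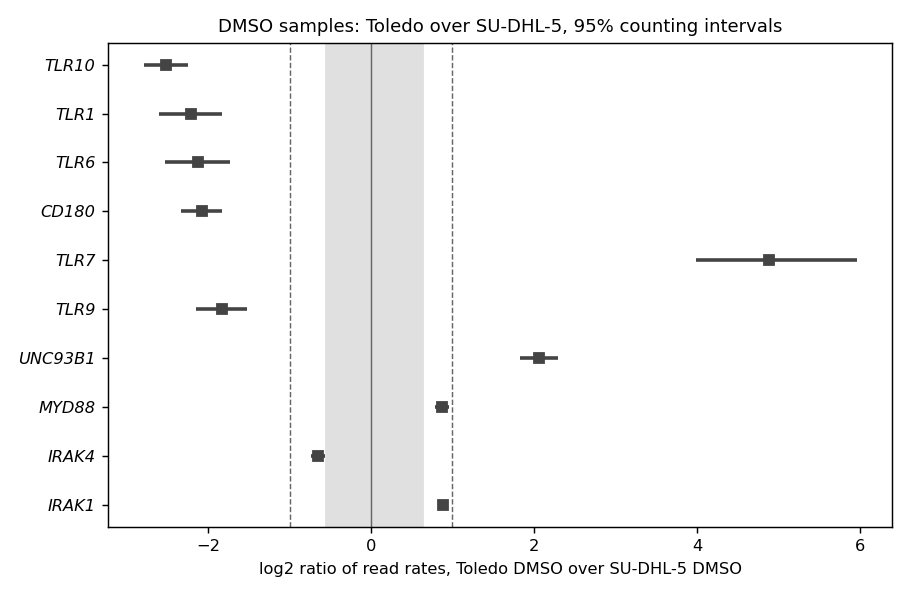
Ratio of Toledo over SU-DHL-5 in the DMSO samples (horizontal axis, log2 of the ratio of reads per mapped read) for the 10 genes. Squares are ratios of summed reads, bars 95% intervals for counting error, the grey band the interquartile range of all tested genes, and dashed lines ratios of 0.5 and 2. The surface receptors and TLR9 lie left of the dashed line at 0.5 and TLR7 and UNC93B1 right of that at 2.

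RPKM is scaled to length, so levels of different genes can be set beside each other. In SU-DHL-5 with DMSO the order was IRAK1 (71.3 RPKM), MYD88 (17.5), IRAK4 (16.4), CD180 (5.60), TLR10 (5.33), TLR9 (3.05), TLR1 (2.99), UNC93B1 (2.49), TLR6 (1.41) and TLR7 (0.0614). MYD88 and IRAK4, CD180 and TLR10, and TLR9 with both TLR1 and UNC93B1 did not differ beyond the spread of their libraries. In Toledo with DMSO it was IRAK1 (131 RPKM), MYD88 (32.2), IRAK4 (10.5), UNC93B1 (10.4), TLR7 (1.82), CD180 (1.32), TLR10 (0.937), TLR9 (0.853), TLR1 (0.649) and TLR6 (0.325), of which IRAK4 and UNC93B1 overlapped. IRAK1 led in all 4 samples. With JQ1 the last place was held by TLR7 in SU-DHL-5 (0.0129 RPKM) and by TLR10 in Toledo (0.0584 RPKM), where TLR1, CD180, TLR6 and TLR10 each overlapped with the next.

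The transcript table lists 4 transcripts of IRAK1, numbered as in that table. IRAK1_3 carried 83.3% and 80.4% of the summed transcript RPKM in SU-DHL-5 with DMSO and JQ1, and 81.7% and 80.2% in Toledo. Its log2 ratios, −1.99 and −2.17, were close to those of the gene. IRAK1_4 had 10.1 and 5.29 RPKM with DMSO and 0.800 and 0.530 RPKM with JQ1 in SU-DHL-5, and 20.8 and 19.6 RPKM with DMSO and 0.653 and 2.45 RPKM with JQ1 in Toledo (log2 −3.35 and −3.62). IRAK1_2 was not called, with 0.476 and 4.26 RPKM with DMSO and 3.83 and 1.73 RPKM with JQ1 in SU-DHL-5, where the libraries overlapped. Its Toledo libraries held 1.04 and 2.81 RPKM with DMSO and 3.09 and 4.06 RPKM with JQ1, a log2 ratio of 0.86 with both JQ1 libraries above both DMSO libraries. Reads shared between transcripts are divided by an estimate, which limits these shares.

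CD180_2 held 93.0% and 88.0% of CD180 in SU-DHL-5 with DMSO and JQ1, and 85.0% and 100% in Toledo. MYD88_2 held 75.6%, 77.5%, 67.1% and 78.2% of MYD88 in the same order, and MYD88_7 most of the rest. The main transcripts thus changed with their genes (log2 −3.16 and −2.68 for CD180_2, −1.10 and −0.67 for MYD88_2). For IRAK4, 17 of 18 transcripts reached 0.1 RPKM, and their shares differed between the libraries of a sample, so none is described. TLR10, TLR1 and TLR6 had 7, 6 and 3 transcripts at few reads each, and TLR7, TLR9 and UNC93B1 had 1 each.

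**Figure D4:**
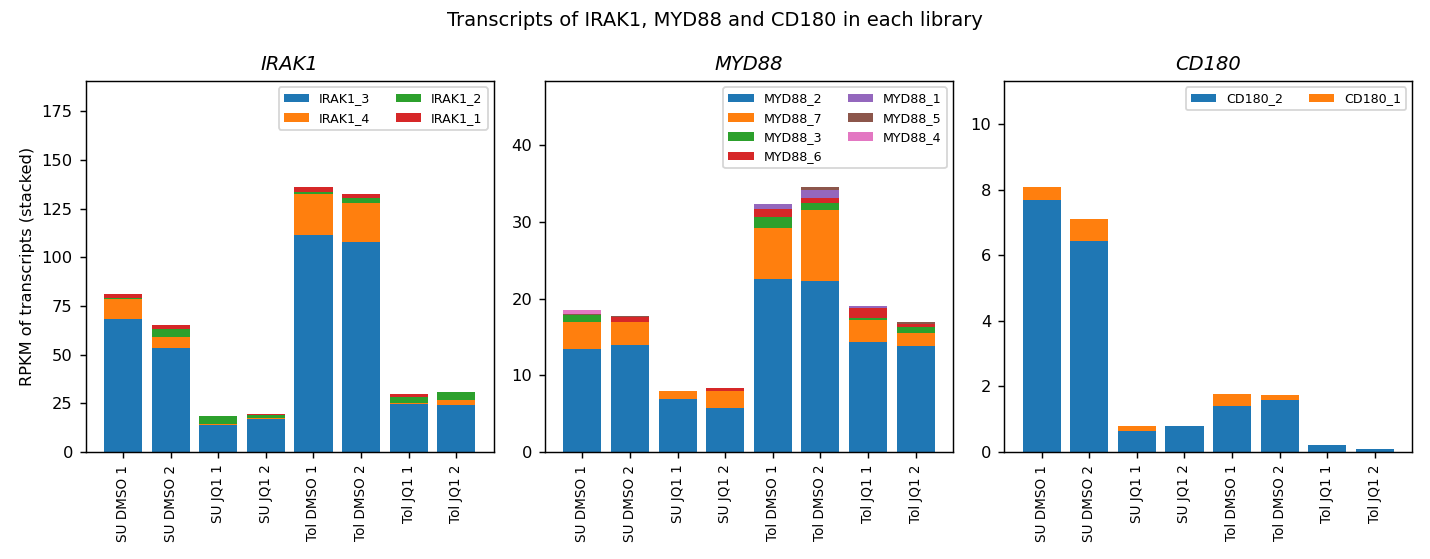
RPKM of the transcripts of IRAK1, MYD88 and CD180 (stacked bars from 0, 1 colour per transcript) in each library of SU-DHL-5 (SU) and Toledo (Tol) cells. A single transcript, IRAK1_3, MYD88_2 or CD180_2, makes up most of each bar, and the bars of IRAK1, MYD88 and CD180 are lower with JQ1 in both lines.

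The rest of the pathway was read from 8 lists with 69 genes, of which 53 were tested. With JQ1 8 of them fell and 1 rose in SU-DHL-5, and 6 fell and 1 rose in Toledo, with medians of −0.03 and −0.04 on the log2 scale. The lower genes were 15.1% and 11.3% of the 53, beside 6.25% and 7.93% of all tested genes, and the higher one 1.89%, beside 1.83% and 1.82%. All tested genes had medians of 0.00 and −0.07.

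Of the genes that fell, 4 of the 8 in SU-DHL-5 and 3 of the 6 in Toledo were receptor partners or trafficking genes. Of that list 11 genes were tested. LY86 (MD-1), the protein that CD180 binds at the cell surface, had 17.4 and 18.4 RPKM with DMSO and 5.58 and 6.74 RPKM with JQ1 in SU-DHL-5 (log2 −1.52). In Toledo LY86 had 24.8 and 19.1 RPKM with DMSO and 4.06 and 3.96 RPKM with JQ1 (log2 −2.42). CD180 and its partner thus fell in both lines. CTSS, the protease cathepsin S, which can process endosomal receptors, had log2 ratios of −1.59 and −1.91. LY96 (MD-2), the partner of TLR4, had −1.38 and −1.69, in Toledo from 32 to 8 reads. CXorf21 (TASL), an adaptor that links endosomal receptors to IRF5, fell in SU-DHL-5 (log2 −2.30), from 316 to 56 reads, and was not called in Toledo (log2 −0.27).

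Among the kinases and ubiquitin enzymes, none of 18 tested was called in SU-DHL-5 and 1 fell in Toledo, the kinase IKBKE (log2 −1.17, and −0.93 in SU-DHL-5). TRAF6, the ubiquitin ligase that acts after IRAK1, had log2 ratios of 0.32 and 0.14. None of the 3 other adaptors and none of the 5 negative regulators tested was called in either line. With 6.25% and 7.93% of all tested genes lower, lists this small cannot be told apart from the rest of the genes. IRAK1 itself had −1.94 and −2.15.

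The 7 transcription factors split. IRF5, which is activated through TLR7, TLR9 and MYD88, fell in both lines (log2 −2.39 in SU-DHL-5, −1.47 in Toledo). IRF7, a related factor, rose in both (log2 1.87 and 1.60). IRF8, a B-cell and myeloid factor, fell in Toledo (log2 −3.09), from 363 to 33 reads, and had a log2 ratio of 0.09 in SU-DHL-5, where it measured 47.4 and 45.8 RPKM with DMSO and 48.8 and 50.5 RPKM with JQ1.

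Of 8 target genes tested, 3 fell in SU-DHL-5 (6.25% of all tested genes) and none in Toledo (7.93%). They were IL10 (log2 −1.92, from 510 to 125 reads), TNF (log2 −1.43, from 68 to 21 reads) and CD83 (log2 −1.05), a surface protein of activated B cells. The other Toll-like receptors, TLR2, TLR3, TLR4, TLR5 and TLR8, were not among the tested genes. TLR4 had the most reads of them, 74 with DMSO and 42 with JQ1 in SU-DHL-5, against 141 and 18 in Toledo. TLR2, the partner of TLR1 and TLR6, had 0 reads in both SU-DHL-5 samples. In Toledo it had 10 reads with DMSO and 4 with JQ1. The 1 tested gene of 4 other receptors that use MYD88 was not called.

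**Figure D5:**
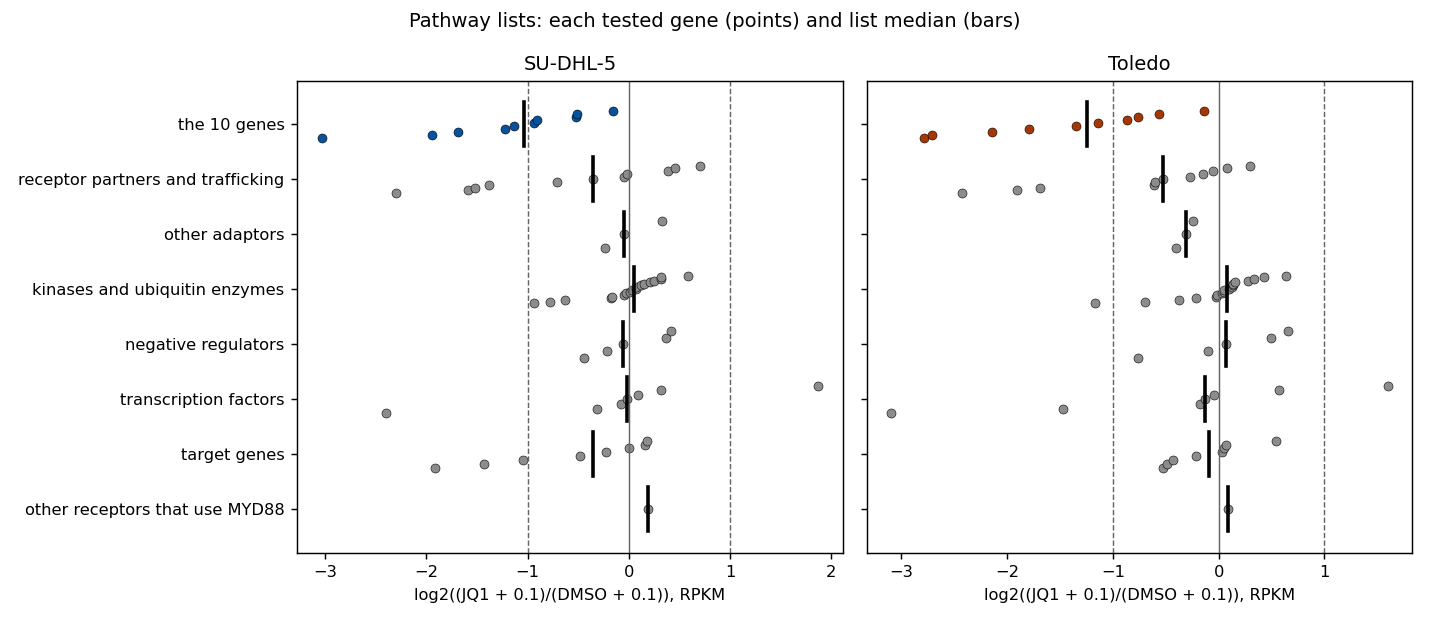
Change with JQ1 (horizontal axis, log2 of JQ1 over DMSO with 0.1 RPKM added to each) of the 10 genes (coloured) and of the tested genes of 7 further pathway lists (grey) in SU-DHL-5 (left) and Toledo (right). Points are genes, bars list medians, and dashed lines ratios of 0.5 and 2. The 10 genes all lie left of 0, while the 53 other genes lie on both sides, with IRF7 as the point at the far right.

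Between the untreated lines 10 of the 53 pathway genes were lower and 15 higher in Toledo, 18.9% and 28.3% beside 13.8% and 16.1% of all tested genes, with a median of 0.29 beside 0.00. SARM1, an adaptor that restrains Toll signaling, had 13 SU-DHL-5 reads and 1105 Toledo reads (log2 4.89), and IRAK2, a kinase related to IRAK1, had 8 and 197 (log2 3.40). TNFAIP3 (A20), a brake on NF-kB, was higher in Toledo (log2 2.26) and IRF8 lower (log2 −3.52). Of the receptor partners and trafficking genes, CXorf21 was higher (log2 2.74) and LY96 lower (log2 −2.56), while LY86 had a log2 ratio of 0.29.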

How the data were processed

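Libraries of SU-DHL-5 and Toledo cells were made from total RNA with a stranded mRNA kit. The deposited tables hold RPKM values for genes and for transcripts, which the authors scaled to feature length and to the mapped reads of each library. GRCh38 (hg38) and CASAVA 2.0 are named in the submitters' processing notes. The aligner, the counting and its strand setting are not given in the sources used here, and without the last reads of antisense genes cannot be assigned to a strand.

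Reads were not reprocessed. Both libraries of each sample entered as their mean, since nothing names what separates them. Mapped reads per library were recovered from single-exon genes, and feature lengths as the smallest whole number from 100 to 40000 bases that made all values whole reads (tolerance 0.01 reads), which succeeded for 99.99% of 14944 genes with a value. Of the mapped reads, 94.8% to 95.5% were on genes. No count model was fitted. After the data were seen, limma (lmFit, eBayes with trend) was run on log2(mean RPKM + 0.1) of the 4 samples with terms for cell line and treatment. Ratios are log2((a + 0.1)/(b + 0.1)) of mean RPKM, and genes with a mean of at least 0.5 RPKM over the 4 samples were tested. A gene was called at a ratio of at most 0.5 or at least 2. Scripts were tested on simulated data.

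The 10 genes, the pathway lists, the markers and the motifs were chosen with earlier results of these data known. All 10 genes are named, with their transcripts of at least 0.1 RPKM. Of each further list, at most 4 genes a comparison were named, those with the largest ratio among called genes whose libraries did not overlap. TRAF6, TLR4, TLR2 and the values given for the other comparison of a named gene were added after their values were seen. Of the 3 markers of plasmacytoid dendritic cells, 2 were in the table. Alternatives varied the pseudocount, the filter, the table, the scaling, the length trend, the library and the limit. The authors' other experiments were not used here. Single values of some marker and neighbouring genes are not reported here, but they remain in the counts and sums. The software was matplotlib 3.10.9, scipy 1.17.1, pandas 2.3.3 and numpy 2.4.6 under Python 3.11.15, with limma 3.58.1 under R 4.3.3.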

Additional observations from a re-analysis of the deposited data

How the results depend on the processing

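The direction of each of the 10 genes was kept in all 70 values per comparison that the alternatives gave. For many of these values that was fixed in advance. A different added value cannot reverse a direction, nor can 1 library alone where the libraries of the samples do not overlap. The side of the limit changed for 3 of the 70 in SU-DHL-5, 5 in Toledo and 2 between the lines. With 1 RPKM added in place of 0.1, TLR10 was no longer called in SU-DHL-5 (−0.97), nor were TLR10 (−0.87), TLR1 (−0.56), TLR6 (−0.31) and TLR7 (−0.67) in Toledo, where 2 genes stayed lower, nor TLR6 between the lines (−0.86). Adding a larger value shrinks the ratios of genes with low RPKM by construction. With 0.01 RPKM added, TLR7 was called in SU-DHL-5 (−1.64, on 10 and 2 reads). Library 1 alone brought TLR9 past the limit in SU-DHL-5 (−1.10) and TLR7 back from it in Toledo (−0.95), and library 2 alone brought IRAK1 past it between the lines (1.03).

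In SU-DHL-5 the median of the 10 genes was −1.20 with 0.01 and −0.82 with 1 RPKM added, in Toledo −1.68 and −0.62, and −1.23 and −0.73 between the lines. With a mean of at least 1 RPKM, 8 genes were left, with a median of −1.18 in SU-DHL-5 and 1 gene higher in Toledo. With library 2 alone the median between the lines was −1.11, and with a limit of 1.5 in place of 2, 4 genes were higher in Toledo. The fit with the cell line as a replicate block, added after the data were seen, is the paired analysis that the samples allow, and 7 genes were lower in it, 7 with 0.01 RPKM added and 6 with 1. Depth limited TLR7 in SU-DHL-5 (2 reads with JQ1) and the surface receptors in Toledo (8 to 13 reads with JQ1).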

Other observations

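The genes next to the 10 were looked at after the values of the 10 were seen. For each of the 8 loci (TLR10, TLR1 and TLR6 as 1 locus) the nearest tested gene on each side was taken, 16 in all. With JQ1, 2 of the 16, TMEM156 and ACY3, fell in each line, and 1 rose in SU-DHL-5, beside 6.25% of all tested genes lower in SU-DHL-5, 7.93% in Toledo and 1.83% higher in SU-DHL-5, with medians of 0.04 and 0.00 on the log2 scale. TMEM156, which lies 109.6 kb from TLR6, went from 8.67 to 3.49 RPKM in SU-DHL-5 and from 2.78 to 0.677 RPKM in Toledo. ACY3, at 340.4 kb from UNC93B1, went from 4.53 to 0.914 RPKM and from 2.30 to 0.213 RPKM. TMEM187, at 27.3 kb from IRAK1, went from 0.527 to 2.08 RPKM in SU-DHL-5 (log2 1.80) and from 2.33 to 4.68 RPKM in Toledo (log2 0.98), in the opposite direction to IRAK1.

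ACAA1, 1.24 kb from MYD88, was not called, with a log2 ratio of 0.45 in the SU-DHL-5 samples and of 0.29 in those of Toledo. PUS7L lies 0.126 kb from IRAK4, and its ratios were 0.00 and −0.34.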
